A study of Mus musculus with 79 samples.

Results

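H3K36me3 ChIP-seq libraries of the hypothalamus were compared with input libraries in wild-type (+/+) mice. Members were chosen by label: 3 H3K36me3 libraries and 3 input libraries of +/+ animals, paired by animal number, which are 6 of the 79 samples of the series. The series studied mice with an aspartate-to-alanine change, named D329A, in the PWWP domain of DNMT3A, and it holds ChIP-seq, RNA-seq and bisulfite libraries of several tissues. The comparison described here asks where along genes the histone mark lies in unaltered tissue and how its level relates to the RNA level of the gene.

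The animals were +/+ at Dnmt3a, about 14 weeks old and of a C57BL/6 background (a line targeted in C57BL/6 embryonic stem cells and crossed with C57BL/6Babr mice). They came from crosses in which the mothers carried a floxed Dnmt3a allele with Zp3-Cre, a recombinase driven in oocytes. The +/+ offspring inherited neither the deleted nor the D329A allele. Each immunoprecipitation used 2.5% of a hypothalamus, so a library averages over all cell types of the tissue. The study's legends give males for ChIP-seq. For RNA-seq 1 legend gives females, while another names gene expression among data of male hypothalamus. The RNA animals are other animals than the ChIP animals. RNA levels come from 5 +/+ libraries, as the mean of log2 RPKM (reads per kilobase of transcript, scaled to library size).

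H3K36me3 is placed on nucleosomes by SETD2, an enzyme that travels with elongating RNA polymerase II, and it therefore marks the bodies of transcribed genes more than their promoters. Proteins with PWWP domains, chromodomains and related folds read the mark, and among them are the DNA methyltransferases DNMT3A and DNMT3B. In the brain, where many neuronal genes are very long, the mark has also been used to follow transcription across cell types.

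The H3K36me3 libraries held 22850001, 21092107 and 19107197 uniquely mapped reads in animals 1, 2 and 3. The input libraries held 14708935, 21579336 and 23890358. Values are reads per 1000000 mapped reads (RPM) in tiles of 2000 bp placed every 1000 bp, and a gene's value is the mean over the tiles whose centre lies between its start and end. The log2 ratio of a gene is log2(H3K36me3 + 0.1 RPM) minus log2(input + 0.1 RPM) within an animal, which understates the difference of genes with little signal. Of the 25965 genes of the expression table, 20487 were tested. Left out were 13 mitochondrial genes, 4967 genes with under 3 tile centres and 498 genes with input under 0.2 RPM. Among the genes too short to test, 110 had an RNA level of 10 RPKM or more, and these include the neuropeptide genes Oxt, Avp and Pmch.

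Reads of H3K36me3 were concentrated in genes. In animals 1, 2 and 3, 55.7%, 55.6% and 57.0% of H3K36me3 tile reads lay in gene bodies, against 41.5%, 41.7% and 41.3% of input reads. Every H3K36me3 library was above every input library. Genes cover 37.5% of the tiles, and the difference was 14.6 percentage points (SD 0.992, n = 3 animals, exact sign-flip p = 0.25, two-sided, the smallest p that 3 animals allow). The log2 of mean H3K36me3 over mean input, with nothing added and averaged over animals, was 0.46 for tiles in genes at 1 RPKM or more, -0.50 for tiles in genes under 1 RPKM and -0.61 for tiles in no gene. The mark was thus above input in transcribed genes and below it in genes under 1 RPKM as a whole and between genes. In bulk tissue, a mark carried by fewer cells and less mark in each cell cannot be told apart, and this holds for each value given here.

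Across gene bodies, limma with the animal as a block called 9241 of 20487 genes higher in H3K36me3 than in input (45.1%) and 8223 lower (40.1%) at an adjusted p under 0.05. The median log2 ratio over these genes was 0.05, 0.06 and 0.09 in animals 1, 2 and 3. The middle 50% of genes ran from -0.67 to 0.79. The ratio was above 0 in all 3 animals for 9732 genes and below 0 in all 3 for 8886. Pearson's r between animals lay between 0.942 and 0.947 across genes, and genes are not independent replicates. Because both directions hold so many genes, a call says only that a gene lies above or below the input, and the size of the ratio carries more. With edgeR on whole reads recovered from the deposited signal (100% of values within 0.02 reads of a whole number), 9389 genes were called higher and 8436 lower without TMM scaling. With TMM scaling 8763 were higher and 9078 lower. The median of all genes was 0.07 with edgeR without TMM and -0.04 with TMM, and the latter is a shift of -0.10 from the 0.06 of limma. Ratios within about that distance of 0 therefore have no fixed direction.

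The mark followed the RNA level, with the largest steps around 1 RPKM. Genes under 0.1 RPKM, called silent here, had median log2 ratios of -0.78, -0.76 and -0.80 in the 3 animals. Genes at 10 RPKM or more had medians of 0.83, 0.81 and 0.89. The medians of the classes lay apart in every animal, while single genes of the classes overlapped. The difference was 1.62 (SD 0.0609, n = 3 animals) between 2252 expressed and 5741 silent genes, with an exact sign-flip p = 0.25, again the smallest that 3 animals allow. The largest step between neighbouring classes lay around 1 RPKM: the mean of the 3 medians was -0.26 for genes at 0.3 to 1 RPKM, 0.46 at 1 to 3 RPKM and 0.75 at 3 to 10 RPKM. Above that it went on in smaller steps, to 0.82 at 10 to 30 RPKM, 0.93 at 30 to 100 RPKM and 1.11 in the 55 genes at 100 RPKM or more. Spearman's rho with the RNA level was 0.702 across all 20487 genes and 0.253 across the 10843 genes at 1 RPKM or more, as a description over genes that are not independent.

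H3K4me3 and H3K27me3 libraries of the same animals share these inputs, so their values are set side by side with no test between marks. H3K4me3, a mark of promoters, had a median log2 ratio of 1.73 over the bodies of genes at 10 RPKM or more and -1.58 over silent genes. It was 1.23 at 3 to 10 RPKM and 1.57 at 10 to 30 RPKM. H3K27me3, the mark of Polycomb repression, went the other way, with -2.01 in genes at 10 RPKM or more and 0.24 in silent genes.

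**Figure D1:**
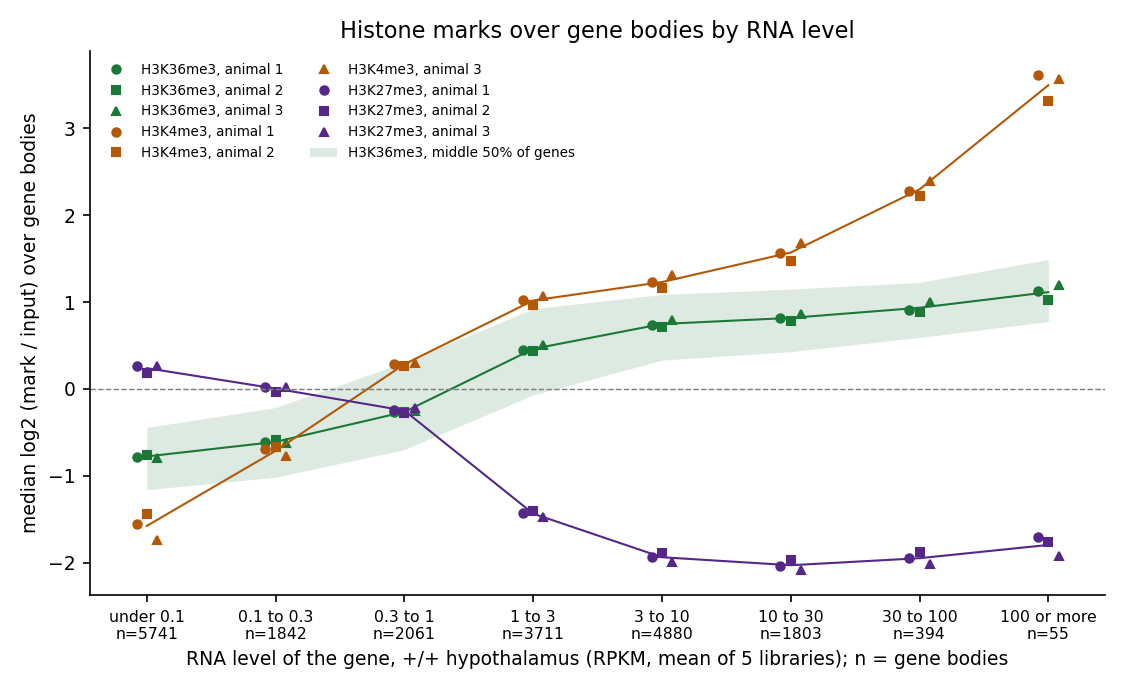
Median log2 ratio of H3K36me3, H3K4me3 and H3K27me3 to input over gene bodies (y axis) in 8 classes of RNA level (x axis, RPKM), with a symbol for each of 3 animals, a line through their mean and a band for the middle 50% of genes for H3K36me3. H3K36me3 crosses from -0.26 to 0.46 around 1 RPKM and goes on from 0.75 to 1.11 above 3 RPKM.

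The calls by class show the same order. Of the 5741 silent genes 5.59% were called higher and 83.1% lower, and of the 3903 genes at 0.1 to 1 RPKM 20.4% were higher and 61.2% lower. Of the 8591 genes at 1 to 10 RPKM 72.0% were higher and 11.4% lower, and of the 2252 genes at 10 RPKM or more 86.1% were higher and 3.69% lower. Silent genes called higher mostly shared their ground with another gene: 262 of the 321 overlap another gene of the table. Among silent genes that overlap another gene 15.6% were higher, and among those that do not 1.45% were.

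Along the gene the mark was not even. Genes of 15 kb or more were split into 3 equal segments from the 5′ to the 3′ end, and 11952 were tested. The 3′ segment was above the 5′ segment in 6878 of them (57.5%) and below it in 819 (6.85%). The middle segment was above the 5′ segment in 5398 (45.2%) and below it in 782 (6.54%; limma on the difference within each animal, adjusted p under 0.05). The 5′ segment holds the gene start. With tiles within 2 kb of the start left out, 5890 of 11943 genes were higher and 1053 lower for the 3′ segment. For the middle segment 4198 were higher and 991 lower. The median gain over all these genes was then 0.35 in place of 0.47 for the 3′ segment. For the middle segment it was 0.19 in place of 0.30. In genes at 10 RPKM or more the median log2 ratio of the 5′ segment was 0.16, 0.16 and 0.19 in the 3 animals, that of the middle segment 0.86, 0.86 and 0.90, and that of the 3′ segment 1.17, 1.15 and 1.22. Each segment lay above the one before it in every animal. In silent genes the 3 segments had mean medians of -0.79, -0.68 and -0.68, so they differed by far less. The median gain from 5′ to 3′ was 0.85 in genes at 10 RPKM or more, 0.65 at 1 to 10 RPKM, 0.29 at 0.1 to 1 RPKM and 0.09 in silent genes.

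The profile along genes of 15 kb or more that overlap no other gene gives the shape at finer scale. In the 1131 such genes at 10 RPKM or more, the median log2 ratio, averaged over the 3 animals, was lowest in the 2 kb before the start, at -1.47, where H3K4me3 stood at 3.81. It was -0.34 in the first 10% of the body and climbed to 1.06 in the part from 60% to 70% and 1.15 in the part after it. Past the annotated end it was still 0.84 over 2 kb, 0.23 over the next 2 kb and -0.19 at 4 to 6 kb. Silent genes were near -0.75 through most of the body and had a shallower low of -0.95 before the start.

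**Figure D2:**
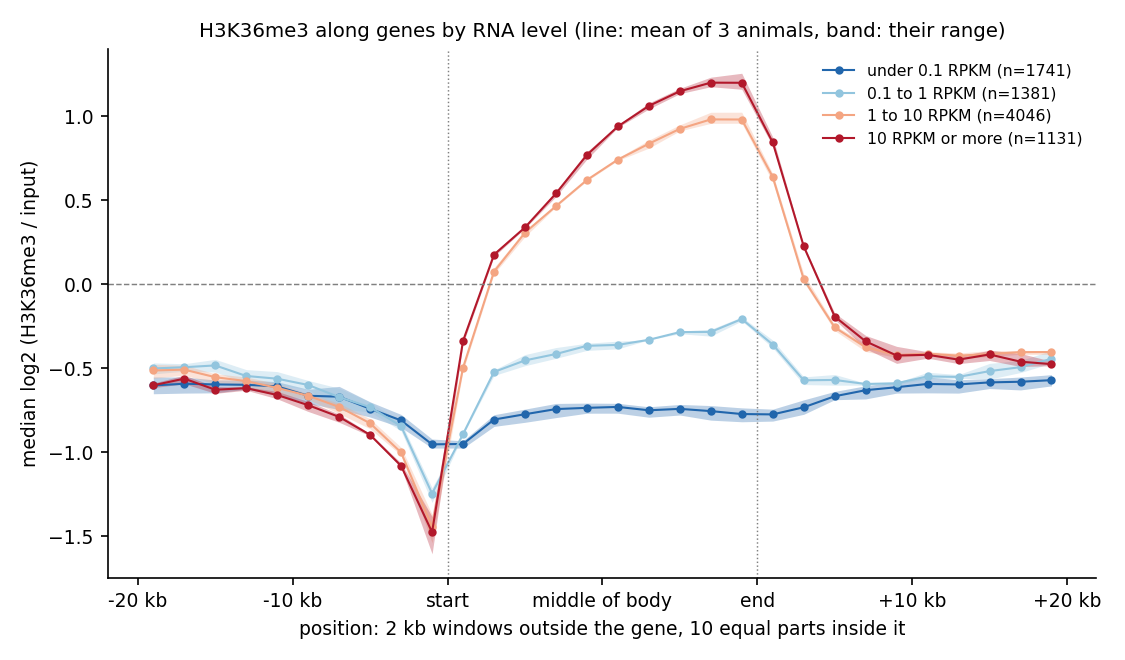
Median log2 ratio of H3K36me3 to input (y axis) from 20 kb before the start to 20 kb after the end of genes of 15 kb or more that overlap no other gene (x axis, 2 kb windows outside and 10 equal parts inside the gene), for 4 classes of RNA level. Lines are means of 3 animals and bands their range; genes at 10 RPKM or more fall to -1.47 before the start and pass 1.15 near the end.

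How soon the mark was reached depended on the length of the gene. Among genes that overlap no other gene, in expressed genes of 15 to 50 kb (10 RPKM or more, 632 genes) the median log2 ratio was -0.86 in the first 2 kb, 0.65 at 5 to 10 kb and 1.07 at 10 to 15 kb. In 396 expressed genes of 50 to 200 kb it was 0.07 at 5 to 10 kb and reached 0.45 at 20 to 30 kb and 0.92 at 50 to 75 kb. In 103 expressed genes of 200 kb or more it stayed between -0.05 and 0.12 from 5 kb to 200 kb. The same distance from the start therefore carried different levels in genes of different length, with similar values in the 3 animals. The values that follow include genes that overlap another. Expressed genes of 200 kb or more were above input mainly at their far end, with segment medians of 0.01, 0.03 and 0.53 from 5′ to 3′. Over the whole body, genes at 10 RPKM or more had a mean median of 0.98 at 15 to 50 kb and 0.22 at 200 kb or more, and 91.2% and 56.5% of them were called higher. The median RNA level of these length classes was 4.05 and 3.98 log2 RPKM. Intron content and the number of alternative starts differ with length too, and their part in this was not tested.

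**Figure D3:**
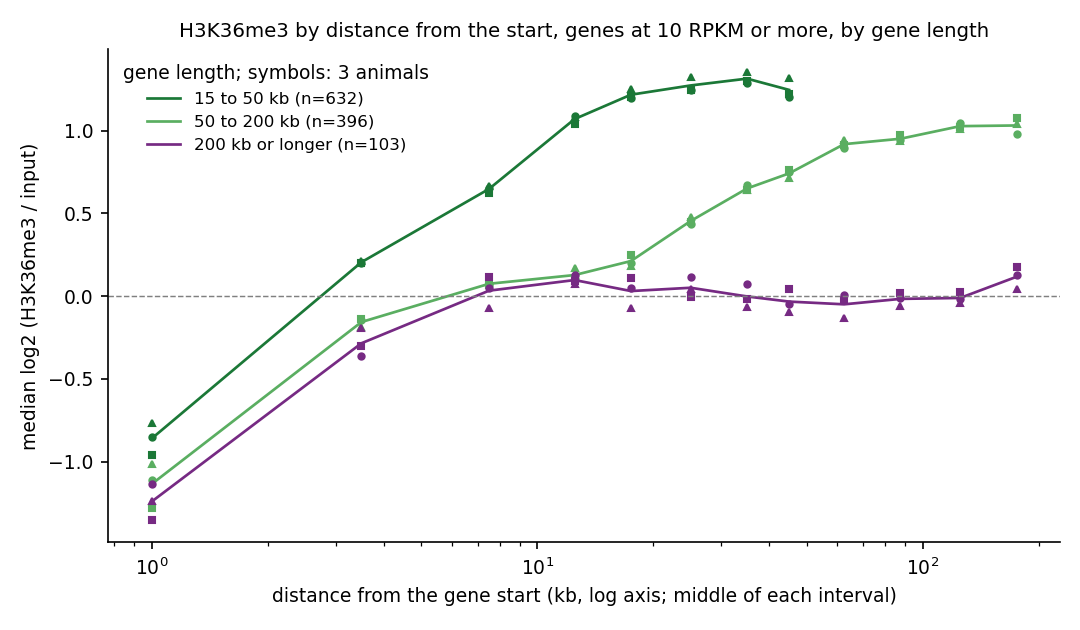
Median log2 ratio of H3K36me3 to input (y axis) by distance from the gene start in kb (x axis, log scale) for genes at 10 RPKM or more that overlap no other gene, in 3 classes of gene length, with a symbol for each animal. Genes of 15 to 50 kb pass 1.07 at 10 to 15 kb and genes of 50 to 200 kb reach 0.92 at 50 to 75 kb. Genes of 200 kb or more start at -1.24 in the first 2 kb and stay near 0 from 5 kb to 200 kb.

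Many of the largest ratios lay on zinc finger genes. Of the 10190 tested genes with 10 or more tiles and no overlap, the 8 highest were Zfp110, Zfp37, Zfp606, Zfp68, AU041133, Zfp369, Zfp2 and Zfp810, and 7 of these carry the Zfp symbol of mouse zinc finger genes, a family in which many members are KRAB repressors of transposable elements. Zfp110 (chromosome 7, 12834761 to 12850577, + strand) had 9.42, 9.72 and 9.25 RPM of H3K36me3 in animals 1, 2 and 3, against 0.926, 0.944 and 0.921 RPM of input. The H3K36me3 values were close to each other and all far above the inputs. The log2 difference was 3.21 (SE 0.0580, adjusted p = 2.9e-05, limma), the largest of the 8, and the lowest was 2.69 for Zfp810. Their RNA levels were modest, from 1.80 RPKM for AU041133 to 6.70 RPKM for Zfp68.

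Over the whole family, 348 of 362 Zfp genes were tested, 287 were called higher and 33 lower, and the median log2 difference was 1.14, beside 45.1% higher, 40.1% lower and a median of 0.06 over all genes tested. They made up 61 of the 100 genes of highest ratio and 111 of the highest 500. In the middle RNA classes the median of the family lay above that of all genes of the class, Zfp genes included. At 0.1 to 1 RPKM it was 0.80 for 57 Zfp genes and -0.45 for all genes. At 1 to 10 RPKM it was 1.24 for 264 Zfp genes and 0.64 for all. On chromosome 7, which holds 85 tested Zfp genes, 67 were higher (78.8%, beside 42.6% of all genes there), with a median of 1.09. On chromosome 13 the median of 33 was 1.56 and on chromosome 17 that of 38 was 1.41. The highest member was Zfp873, a gene of 2.91 kb, at 3.44. The lowest, Zfp616, fell by 1.51, and its RNA level of 0.0113 RPKM is the floor of a gene with no read. Of 19 silent Zfp genes 14 were lower, and the 2 that were higher, named here after their values were seen, were Zfp473 (0.71) and Zfp457 (0.80). No test of the family against other genes was made.

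The 5 genes with the steepest gain towards the 3′ end were picked by the difference between segments, which favours a low 5′ segment. Idh1 encodes the cytosolic NADP-dependent isocitrate dehydrogenase and lies on chromosome 1 from 65158616 to 65186479 on the - strand. Its 5′ segment had log2 ratios of -1.92, -1.68 and -1.36 in the 3 animals, its middle segment 1.10, 1.17 and 1.14, and its 3′ segment 1.43, 2.09 and 1.90. No value of the 5′ segment came near those of the others, and the 3′ gain was 3.46 (SE 0.128, adjusted p = 9.4e-05, limma). In the 2 kb after its start H3K36me3 was 0.175, 0.0948 and 0.183 RPM against inputs of 0.918, 0.811 and 0.795 RPM, while H3K4me3 was 14.3, 14.1 and 16.1 RPM. The other 4 of the 5 largest gains were Zfp677 (3.33), Mat2b (3.25), which encodes the regulatory subunit of methionine adenosyltransferase, Zfp712 (3.13) and Isoc1 (3.12). Zfp110 differed in this respect: over the 2 kb after its start H3K36me3 was 1.49, 1.45 and 1.57 RPM against inputs of 0.782, 0.533 and 0.733 RPM, although H3K4me3 there was 21.9, 21.7 and 23.6 RPM.

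The promoters of these 2 genes are shown because in the 2 kb after the start the mark was below input at Idh1 and above it at Zfp110. In the 2 kb before the start it was below input in each animal at both, with 0.591, 0.522 and 0.340 RPM against inputs of 1.33, 0.857 and 1.15 RPM at Zfp110. They are taken from RefSeq (GRCm38.p6), from 250 bases before to 50 after the start, at chr1:65186430-65186729 on the - strand for Idh1 and chr7:12834511-12834810 on the + strand for Zfp110, 5′ to 3′, with CG dinucleotides in capitals.
Idh1: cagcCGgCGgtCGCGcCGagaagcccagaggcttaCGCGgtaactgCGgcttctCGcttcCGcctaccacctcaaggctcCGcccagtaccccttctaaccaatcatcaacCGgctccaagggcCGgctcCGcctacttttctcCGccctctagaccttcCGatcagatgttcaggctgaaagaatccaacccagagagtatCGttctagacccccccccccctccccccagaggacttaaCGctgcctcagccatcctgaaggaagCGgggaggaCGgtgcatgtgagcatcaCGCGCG
Zfp110: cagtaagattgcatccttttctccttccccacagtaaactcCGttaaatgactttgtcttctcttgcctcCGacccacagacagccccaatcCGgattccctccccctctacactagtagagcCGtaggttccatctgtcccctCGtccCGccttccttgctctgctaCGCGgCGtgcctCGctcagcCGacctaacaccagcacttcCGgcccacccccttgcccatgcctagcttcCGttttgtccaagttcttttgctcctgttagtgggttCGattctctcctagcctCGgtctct
The motif searched was CG, which reads the same on both strands. Idh1 holds 23 of them and Zfp110 holds 15, beside a median of 7 over 32851 promoters of this length, of which 21.5% hold at least as many as Idh1 and 34.6% at least as many as Zfp110. Both were thus richer in CG than most promoters, and no relation to the mark was tested.

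A loss of mark from the 5′ to the 3′ end was rarer. The 5 largest were 4930453N24Rik (-2.22), 2510003E04Rik (-1.91), Aldh3a2 (-1.90), Zfp874a (-1.90) and Rbm41 (-1.90). Aldh3a2, the fatty aldehyde dehydrogenase gene, had 5′ ratios of 1.24, 1.59 and 1.74 and 3′ ratios of -0.38, -0.28 and -0.48 in the 3 animals. The annotated 3′ segment was thus below input in each animal, although the whole body was called higher at 0.91. Whether the transcript used in this tissue ends early was not tested.

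At the low end stood genes of the silent class. The 5 lowest of the same 10190 genes were Skor1, a corepressor of the SKI family, Lrrc8e, a subunit of volume-regulated anion channels, the vomeronasal receptor genes Vmn2r52 and Vmn2r109, and Pitx1, a homeodomain factor of the pituitary and hind limb. Skor1 had 0.101, 0.109 and 0.0628 RPM of H3K36me3 and 0.659, 0.797 and 0.666 RPM of input, and every H3K36me3 value lay far below every input. The log2 difference was -2.08 (SE 0.136, adjusted p = 7.0e-05, limma), and those of the other 4 lay between -2.05 and -1.95. H3K27me3 was above input at Skor1 (2.99) and Pitx1 (2.95), stood at 0.51 at Lrrc8e and was near input at Vmn2r52 (-0.15) and Vmn2r109 (0.02).

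**Figure D4:**
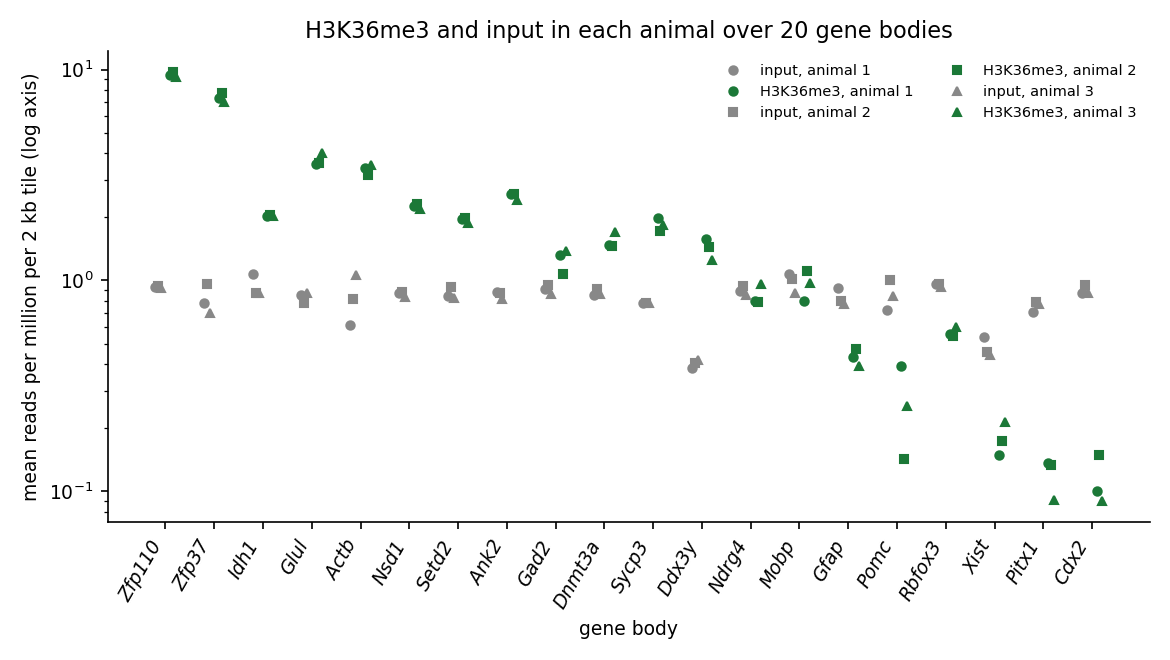
H3K36me3 (green) and input (grey) in each of 3 animals over 20 gene bodies, as mean RPM per 2 kb tile (y axis, log scale). Zfp110 stands at 9.25 to 9.72 RPM above inputs near 0.93 RPM, Mobp overlaps its inputs, and Cdx2 lies below its inputs.

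Genes that every cell uses carried the mark with few exceptions. Of 24 housekeeping genes tested 23 were higher and 0 lower, with a median of 1.15, beside 45.1% higher, 40.1% lower and 0.06 over all genes. In this list edgeR with TMM called 22 higher and 0 lower, and without TMM 23 and 0. Actb, the gene of cytoplasmic actin, led with 3.41, 3.16 and 3.52 RPM of H3K36me3 against inputs of 0.612, 0.819 and 1.06 RPM (log2 difference 1.92). Polr2a, which encodes the large subunit of RNA polymerase II, stood at the median with 1.14. The exception was B2m, the light chain of class I MHC molecules, with 0.780, 0.925 and 0.759 RPM of H3K36me3 overlapping inputs of 0.816, 0.649 and 0.942 RPM (0.04, adjusted p = 0.81), although its RNA level was 28.1 RPKM. Of 64 ribosomal protein genes tested 58 were higher and 1 lower, and 54 and 3 with edgeR and TMM, with a median of 1.06. Rps4x was highest (1.85), and the lower member was Rpl3l (-1.26), a paralogue at 0.0363 RPKM.

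The genes of the machinery of the mark were mostly called higher, beside 45.1% higher and 40.1% lower over all genes. Listed symbols absent from the expression table were Nsd2 and Nsd3 (methyltransferases), Kdm8 (demethylases), Hdgfl2 (readers) and Supt5, Supt6 and Supt16 (elongation factors). No filter left them out. All 8 H3K36 methyltransferase genes tested, of 10 listed, were higher, with a median of 1.03. They include Setd2 (1.08), Nsd1 (1.29) and Smyd2, the lowest at 0.40. Setd2, which encodes the trimethylating enzyme, had 1.96, 1.97 and 1.86 RPM against inputs of 0.842, 0.925 and 0.823 RPM. All 6 H3K36 demethylase genes tested, of 7 listed, were higher with a median of 0.74. They ran from Kdm4a at 1.38 to Kdm4d at 0.18, whose call was lost under TMM scaling (adjusted p = 0.15), under median centring (0.051) and when any animal was left out. Of 18 reader genes 14 were higher and 2 lower (median 0.95). Psip1, which encodes the PWWP protein LEDGF, led at 1.44. Dnmt3a, the gene altered elsewhere in the series, had 1.47, 1.45 and 1.69 RPM against inputs of 0.848, 0.908 and 0.859 RPM (0.75), and Dnmt3b fell by 0.28, a call lost without animal 2 or 3. The other lower member was Phf19, a Polycomb-associated Tudor protein gene, at -0.66. All 13 elongation factor genes tested, of 16 listed, were higher (median 1.10), from Ell2 at 0.46 to Leo1, a subunit of the PAF complex, at 1.40.

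Neuronal genes were split. Of 30 synaptic and neuronal genes 18 were higher and 7 lower, with a median of 0.43, and with edgeR 17 were higher and 10 lower under TMM. Over all genes tested 45.1% were higher and 40.1% lower, with a median of 0.06. However, 25 of the 30 were at 10 RPKM or more, a class with 86.1% higher, 3.69% lower and a median of 0.85. The list thus lay below that class. Ank2, which encodes the membrane adaptor ankyrin-B, led with 2.56, 2.58 and 2.41 RPM against inputs of 0.880, 0.870 and 0.818 RPM (1.45). Gad2, an enzyme of GABA synthesis, had a log2 difference of 0.42 and Rbfox3, the gene of the neuronal marker NeuN, of -0.66. The 7 lower genes were Rbfox3, Slc32a1, Cntnap2, Dlg2, Rbfox1, Ptprd and Nrxn3, the last 6 chosen after their values were seen. Of these Cntnap2, Dlg2, Ptprd and Nrxn3 are between 1356 and 2271 kb long, Rbfox1 is 603 kb and Rbfox3 422 kb long, and their RNA levels ran from 4.45 to 15.2 RPKM. The remaining one, Slc32a1, which encodes the vesicular GABA transporter, is 4.98 kb long and fell by 0.51, a call lost without animal 2 and under 3 other filters or body limits. Of all genes of 200 kb or more at 10 RPKM or more 15 of 138 were lower, beside 20 of 839 at 15 to 50 kb and 3.69% of all genes at that RNA level. At 1 to 10 RPKM, the class of Rbfox3, Ptprd and Dlg2, 167 of 607 genes of 200 kb or more were lower, beside 11.4% of all genes in it.

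Neuropeptide genes were mostly below input. Of 13 hypothalamic neuropeptide genes tested, of 22 listed, 11 were lower and 1 higher, with a median of -1.02 (all genes: 40.1% lower, 45.1% higher, median 0.06), and this count was the same with edgeR with and without TMM. Pomc, the precursor of melanocortins and made by few cells of the arcuate nucleus, had 0.394, 0.142 and 0.253 RPM of H3K36me3 against inputs between 0.725 and 1.004 RPM. The values did not overlap, and the log2 difference was -1.45 at an RNA level of 13.5 RPKM. Penk (12.9 RPKM) was at -1.05, Gal, the galanin gene (11.2 RPKM), at -1.02 and Kiss1 at -1.54. The higher member was Gnrh1, at 0.73 with 0.574 RPKM, and Adcyap1 was not called (-0.10, adjusted p = 0.52). The share of cells that express each of these genes was not measured here.

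Glial and vascular markers ranged from far above to far below input. Of 12 astrocyte genes 5 were higher and 2 lower, with a median of 0.03 that turned to -0.09 under TMM, where 3 were higher and 5 lower. Over all genes 45.1% were higher and 40.1% lower. At 10 RPKM or more, where 10 of the 12 lay, 86.1% were higher and 3.69% lower, with a median of 0.85. Without animal 1 the astrocyte median was -0.08 and without animal 2 it was 0.12. Glul, glutamine synthetase, had 3.56, 3.59 and 4.02 RPM against inputs of 0.850, 0.783 and 0.875 RPM (2.03), and Gfap, the intermediate filament of astrocytes, had 0.434, 0.470 and 0.391 RPM against 0.920, 0.802 and 0.773 RPM (-0.81) at 24.2 RPKM. These 2 genes of the same cell type lay on opposite sides of the input. Of 11 oligodendrocyte genes, of which 9 were also at 10 RPKM or more, 2 were higher and 1 was lower. Without animal 2 and under TMM 3 were lower. The myelin gene Cnp was higher (1.36), and Opalin was lower (-0.53). The list median was -0.04 and 0.12 without animal 1. Mbp, myelin basic protein, was not called at 0.03 despite 97.1 RPKM. Of 5 oligodendrocyte precursor genes 4 were lower and 0 higher (median -0.40; 3 and 1 without animal 1, 3 and 0 without animal 2 or 3), with Cspg4 at -1.21 and Sox10 at -0.40. Of 11 microglia genes 8 were lower and 2 higher, with a median of -0.86, and P2ry12, a purinergic receptor gene, was higher (0.84). Aif1 was the lowest, at -1.64. Of 10 endothelial genes 6 were lower (5 to 7 under other settings, 40.1% over all genes) and 1 higher, the glucose transporter gene Slc2a1 (0.60), with a median of -0.30. Ly6c1 was the lowest at -0.95. Among genes with 10 or more tiles and no overlap, the 5 of highest RNA level that were at or under 0 included markers too: Ndrg4 (82.3 RPKM, -0.07), Agt, the angiotensinogen gene (54.4 RPKM, -0.44, called lower), Mobp (52.7 RPKM, -0.04), Calb2, the calretinin gene (52.6 RPKM, -0.05), and Celf4 (50.5 RPKM, -0.06). Ndrg4 was called lower under TMM (-0.19), as was Celf4 (-0.18). The 3′ segment of Ndrg4 was above input in each animal, at 0.68, 0.77 and 1.21, while its 5′ segment was at -0.86, -0.99 and -0.75.

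Genes of neighbouring tissue and of other tissues were mostly below input, beside 40.1% of all genes and 83.1% of silent genes. Silent were 14 of 14 liver, 12 of 15 skeletal muscle and 10 of 12 germ cell genes tested. So were 123 of 126 olfactory and 105 of 113 vomeronasal receptor genes. Fewer were silent among epidermal (6 of 11), pituitary (4 of 8) and ependymal and choroid plexus genes (1 of 8). Of 8 ependymal and choroid plexus genes 7 were lower and 0 higher (median -1.07), with Kcne2 at -1.81. Of 8 anterior pituitary genes 7 were lower and 1 higher (median -1.13). The higher member was Lhb, at 0.32, a call that edgeR did not make (adjusted p = 0.22 with TMM and 0.094 without) and that was lost without animal 1 or 2. All 14 liver genes tested (of 16 listed, median -0.96) and all 15 skeletal muscle genes tested (of 16 listed, median -0.84) were lower. Cyp3a11 was at -1.55 and Myod1, the muscle determination factor, at -2.04. Of 11 epidermal genes 10 were lower and 0 higher (median -1.20). Among olfactory receptor genes 126 of 1087 were long enough to test, 122 were lower and 0 higher (median -0.80), and without animal 3 limma called 1 of them higher. Of 113 vomeronasal receptor genes tested 92 were lower and 6 higher (median -1.02). Of 12 germ cell genes 10 were lower and 1 higher (median -0.84). That gene was Sycp3, which encodes a protein of the meiotic synaptonemal complex: it had 1.97, 1.72 and 1.84 RPM against inputs of 0.782, 0.778 and 0.783 RPM (1.14) at an RNA level of 0.0644 RPKM. Its body overlaps another gene of the table.

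Polycomb targets had the lowest median of the lists. All 36 developmental genes were lower, with a median log2 difference of -1.64, and they were lower with each scaling. Over all genes 40.1% were lower and 45.1% higher, with a median of 0.06. Of the 36 genes 32 were silent, and over all silent genes 83.1% were lower, with a median of -0.78. Cdx2, a homeobox factor of gut and trophoblast, had H3K36me3 between 0.0897 and 0.149 RPM against inputs of 0.874, 0.947 and 0.867 RPM (-2.24), and Wt1 was the least low at -0.90. The median H3K27me3 ratio of the list was 2.87, over the same inputs. Histone genes that are made in S phase were mostly too short, with 5 of 68 tested, of which 4 were lower (median -1.34) although H3K4me3 stood at 3.36. The annotated bodies of these 5 had a median length of 8.29 kb, so they are not typical of the family in length. Hist1h1d was the lowest at -2.36. Of 9 immediate early genes, which respond to neuronal activity, 3 were higher and 2 lower (median -0.08): Dusp1 (0.98), Npas4 (0.62) and Nr4a1 (0.42, not called by edgeR) were higher, and Fosb (-1.32) and Egr2 (-0.63) lower. Fos was not called at -0.08. The median of these 9 genes was 0.07, 0.05 and 0.26 in animals 1, 2 and 3 taken alone. It was -0.15, -0.19 and -0.09 without animal 1, 2 or 3. With edgeR 2 were higher and 3 lower, with and without TMM.

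**Figure D5:**
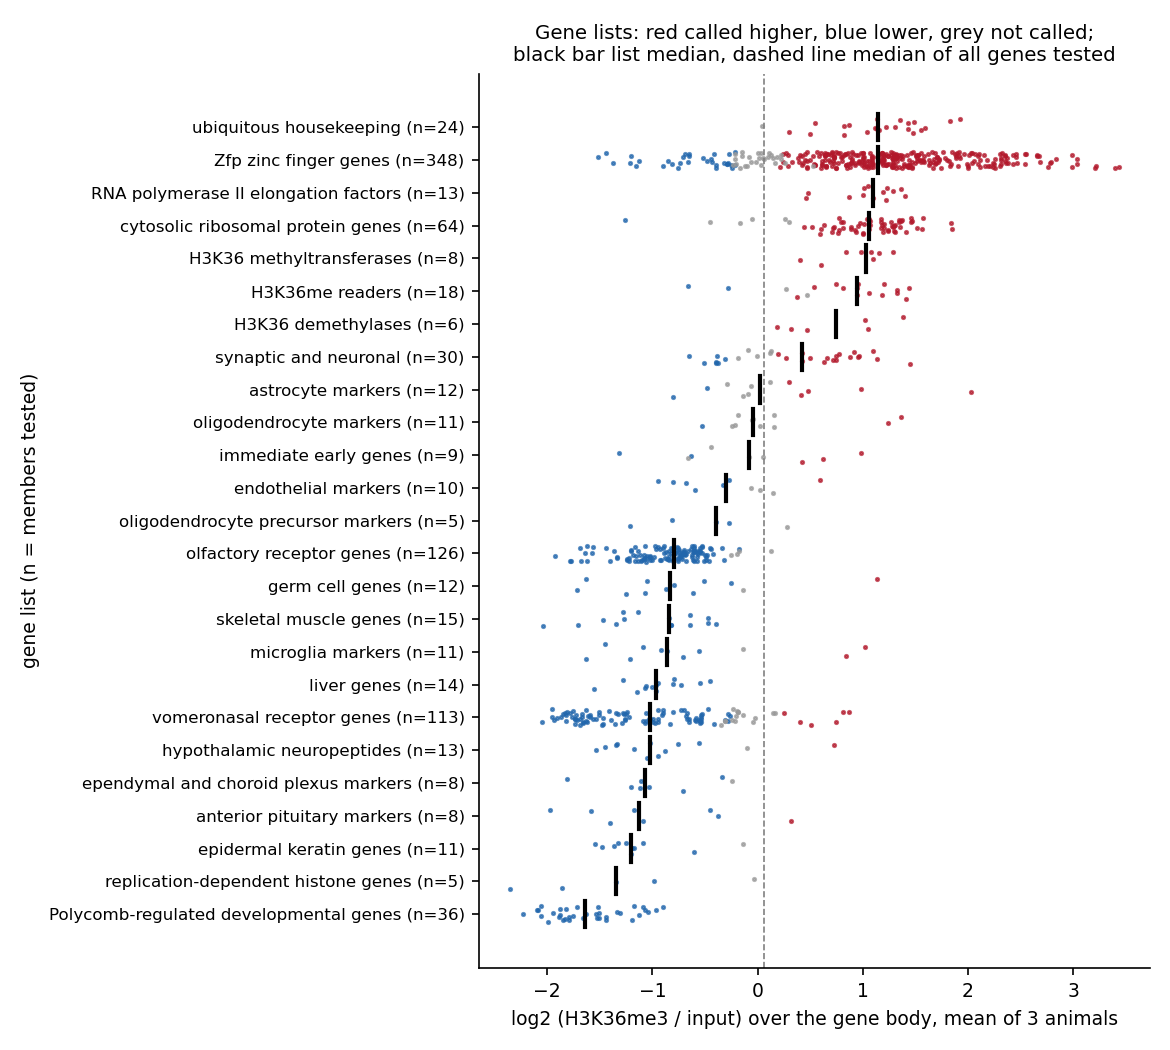
Log2 difference between H3K36me3 and input over the gene body (x axis, mean of 3 animals) for the tested members of 25 gene lists (y axis), as dots coloured by call with the list median as a black bar. Housekeeping genes (1.15) and zinc finger genes (1.14) lie furthest above the median of all genes (0.06, dashed), and Polycomb-regulated genes (-1.64) furthest below; the astrocyte median of 0.03 turns to -0.09 under TMM.

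On the sex chromosomes RNA level and mark went different ways at some genes, and the cause was not tested. The RNA and ChIP values come from different animals. The legends give males for ChIP-seq and differ for RNA-seq, so a silent gene here is one silent in the RNA animals. Xist and the chromosome Y genes were chosen after values had been seen. Xist, the RNA that coats the inactive X chromosome in females, had RNA levels of 3.88, 4.10, 3.80, 4.29 and 4.59 log2 RPKM in the 5 libraries, but H3K36me3 of 0.148, 0.173 and 0.214 RPM against inputs of 0.538, 0.459 and 0.440 RPM. The log2 difference was -1.06, called lower. Conversely Kdm5d, a Y-linked H3K4 demethylase gene, had RNA levels of -6.80 to -6.35 log2 RPKM, the floor of a gene with no read. It had 1.19 to 1.26 RPM of H3K36me3 against inputs of 0.380, 0.377 and 0.399 RPM. Its difference was 1.44. Ddx3y, a helicase gene (1.59), Eif2s3y, a translation initiation factor gene (1.11), and Uty, a demethylase paralogue (0.89), were called higher as well, while Usp9y (-1.18), Zfy1 (-0.85) and Zfy2 (-1.45) were lower and Ube1y1 was not called (-0.21). Ddx3y, Kdm5d and Eif2s3y had H3K4me3 log2 ratios of 2.09, 1.02 and 1.44 over the body in the ChIP animals. They were among the 5 highest silent genes without overlap. The others were Pla2g4c, a phospholipase gene (1.52), and 4930443O20Rik (1.43), which ends 0.566 kb from Tnks1bp1, a gene at 4.15 RPKM. On the X chromosome the median input over genes at 10 RPKM or more was 0.428, 0.433 and 0.419 RPM in the 3 animals, against 0.867, 0.881 and 0.856 RPM on autosomes. The log2 ratio takes this into account only in part, because the added 0.1 RPM weighs more on low values. The mean of the 3 medians was 1.03 for 90 such X-linked genes and 0.84 for 2162 autosomal genes.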

How the data were processed

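The authors made the ChIP-seq libraries by ultra-low-input native ChIP with micrococcal nuclease, sequenced 75 bp single-end reads, trimmed them with Trim Galore (0.4.3 in the submitters' processing notes), mapped them to GRCm38 with Bowtie and counted them in SeqMonk. The deposited ChIP signal is reads per 1000000 uniquely mapped reads (RPM) in 2000 bp tiles, not divided by length and with no input subtracted. For RNA-seq the authors mapped with HISAT2 (2.0.5 in the submitters' notes, 2.1.0 in the methods) and deposited log2 RPKM, in which a gene with no read sits at a floor of 0.9 reads. Whole reads were recovered from the signal.

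Gene bodies run from start to end in the expression table. Log2(RPM + 0.1) was fitted with limma 3.58.1 (R 4.3.3), with the animal as a block, and Benjamini-Hochberg adjustment over all genes tested. Segment differences were taken within each animal. edgeR 4.0.16 (quasi-likelihood, on reads of non-overlapping tiles) was an alternative. Medians and read shares were compared over animals by exact sign flips. The fits were tested on simulated data in which 200 genes changed by a log2 step of 1. They were drawn from 20487 gene bodies, or from 11952 genes for the segments, and changed up and down in equal number. In the real data 85.2% of gene bodies were called. The counts that follow therefore do not cover data in which most genes differ. Over gene bodies limma recovered 173 with 6 false calls and edgeR 196 with 3. For the 3′ against the 5′ segment limma recovered 163 with 10 false calls. Tables and figures used Python 3.11.15, numpy 2.4.6, pandas 2.3.3 and matplotlib 3.10.9.

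Per the study's methods each animal gave all its ChIP and input libraries, which is the source of the pairing. The deviations of same-numbered H3K36me3 and input libraries from their group means had correlations of 0.0218, -0.0363 and -0.0304. Libraries of other genotypes in the tables (16 columns) were not used. Members and lists were chosen with earlier results of these data known. Genes are named by these rules: among genes with 10 or more tiles and no overlap, the 8 highest and 5 lowest called, the 5 largest gains and the 5 largest losses towards the 3′ end, the 5 genes of highest RNA level at or under 0, and the 5 highest silent genes called higher; and, without these limits, the highest, median and lowest member of each list with members needed for its count. Some named members are not reported here. Alternatives were other pseudocounts, scalings, filters, gene body limits, no block and leaving out each animal.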

Additional observations from a re-analysis of the deposited data

Results flagged for a closer look

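The RNA levels of 133 named genes were screened over the 5 +/+ RNA-seq libraries for a library far from the other 4, and 7 genes had one. Chance alone would mark about 1 in 20 groups, so 7 of 133 is near that share. Pomc stood at 5.12 log2 RPKM in library 1, with the next at 3.57 and the lowest at 3.26. Sycp3 was at -2.08 in library 3, with the next at -4.29, and Zfp457 at -2.71 in library 4, with the next at -4.98. Kcne2 reached -3.90 in library 5, with the next at -4.72. For Sycp3 and Kcne2 the other libraries lie near the floor of a gene with no read, so a few reads make these differences. Low libraries were library 5 for Zfp473 (-6.40, next -4.29) and Egr2 (-4.25, next -2.56) and library 2 for Npas4 (-0.63, next 0.04). No H3K36me3 value rests on these libraries, and the silent class of Sycp3, Zfp457, Kcne2 and Zfp473 is a mean over all 5.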

How the results depend on the processing

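The number of genes called, the read share and the difference between expressed and silent genes stayed in the same class under all 51 alternatives run on them. The balance of calls did not: with genes of at least 1 tile 9400 were higher and 10305 lower (median -0.133), with genes of at least 10 tiles 7621 and 5451 (median 0.219), and edgeR with TMM gave 8763 and 9078, against 9241 and 8223 as reported. Without the replicate block, that is without pairing by animal, 17678 gene bodies were called in place of 17464, and among the named genes Olig2 was then called higher. The block changed no other call of a named gene. Leaving out each animal gave 16517 to 16696 gene bodies called, 6832 to 6963 for the 3′ segment and 4556 to 5118 for the middle segment. Lower calls of the middle segment were then 420 to 527, in place of 782. The read share difference then ranged from 14.0 to 14.9 points and the difference between expressed and silent genes from 1.59 to 1.65, with exact p = 0.5, the smallest that 2 animals allow.

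Named genes that changed sign were not called in the fit reported, and the furthest from 0 was Rarres2 at -0.24. Ranges over leaving out each animal were Adcyap1 (-0.29 to 0.00207), B2m (-0.168 to 0.198), Calb2 (-0.135 to 0.115), Fos (-0.153 to 0.0611), Gja1 (-0.0383 to 0.226), Hist1h2be (-0.0898 to 0.00163), Mobp (-0.135 to 0.124), Ndrg4 (-0.186 to 0.00731) and Rarres2 (-0.427 to 0.0358). With bodies from 500 bp after the start, Fos became 0.14 and Hist1h2be 0.00119. Under edgeR, Calb2 became 0.0391 without TMM, and Gja1 -0.00506 and Mbp -0.0712 with TMM. The cause was not tested. Of the other values of named genes 1849 kept their side of the threshold, 23 lost a call and 11 gained one.

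Limits are these. 3 animals give no exact p under 0.25, and limma calls 85.2% of genes. Tiles of 2000 bp blur anything smaller, and short genes were left out. Overlapping genes share tiles, with 6323 of the genes tested in this position, and the table does not split them by strand. No spike-in values were available here, so ratios are relative to the other regions of a library. Input depth differed from 14708935 to 23890358 reads.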
